A study of Mus musculus with 360 samples.

Results

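The cells described here were C1498 cells picked 5 h after heating at 45 °C and sorted by how much Lrrc17 RNA each held. C1498 is an established mouse leukemia line. Of 360 cells in the series, 61.9% were picked at this temperature and time. Cells were kept if they held at least 5000 unique molecular identifiers (UMIs, each standing for 1 counted RNA molecule) and if no more than 30% of their UMIs came from the ribosomal RNA precursor Rn45s, which left out 7 cells. Lrrc17 was expressed per cell in CPM, the share of a cell's UMIs scaled to 1e6. The 54 cells at or above the 75th percentile were the Lrrc17-high cells and the 54 at or below the 25th percentile the Lrrc17-low cells. The other kept cells were divided at the median into 54 upper-middle and 54 lower-middle cells. The cells were thus chosen by their measured Lrrc17 level, whose difference between the classes only describes that choice.

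The line had been heated at 45 °C for 10 min, with 37 °C in place of 45 °C for the control arm. An instrument that images living cells and picks them one by one took cells at -1, 1, 5, 10 or 15 h relative to heating. A time of -1 h lies before heating, so 51 cells of the series were unheated: all those of the 37 °C arm and those of the 45 °C arm at -1 h. No clone, culture, plate or picking day was named for any cell. All heated cells at 5 h therefore counted as 1 sample, no test was made between the classes, and the 95% intervals given below cover counting error only. The cells carried the leukocyte marker RNAs Ptprc, Coro1a and Laptm5, which summed to 1571 CPM in the high and 1597 CPM in the low class. C1498 is labelled as a myeloid leukemia, but 6 of 8 myeloid markers, among them Lyz2, Spi1, Csf1r and Cebpa, were at 0 UMIs in both classes, and the other 2, Mpo and Prtn3, had at most 3 UMIs in a class. Of 8 T cell markers, 2 chains of CD3, Cd3e and Cd3g, made 216.04 and 194.3 CPM in the high and 206.3 and 208.9 CPM in the low class. Cd28 had 45.7 and 23.1 CPM, and the other 5, Cd3d, Cd247, Cd2, Lck and Thy1, were at or under 8.35 CPM.

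Lrrc17 encodes a secreted protein built of leucine-rich repeats, best known as an inhibitor of bone-resorbing osteoclast formation that acts against the cytokine RANKL and the transcription factor NFATc1. Bc1, the RNA that followed Lrrc17 most closely here, is a short rodent RNA made by RNA polymerase III, known from neurons as a regulator of translation. Its 5′ part is the founder of the ID elements, short repeats that retrotransposition has copied to many places in rodent genomes.

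Lrrc17 (chr5:21543527-21575911 in the mouse build GRCm38) and Bc1 hold the same stretch of sequence. In the GENCODE M21 transcripts, 82 unbroken bases were identical between Bc1, where they start at base 5, and the Lrrc17 transcript of 2154 bases, where they start at base 1702 and lie in the 3′ UTR in exon 4 of 4. The first 20 of these bases, capitalised below, were searched on the strand of each transcript and were found in 13 of 55341 genes (0.0235%). The whole stretch of 82 bases was found in 2, Lrrc17 and Bc1. Kif3a, a motor subunit of kinesin-2, and Ccdc36, a protein of meiotic recombination, were also among the 13. They are shown because both were known from earlier results to vary widely among these cells. The first 30 bases of each, 5′ to 3′, are given on the sense strand.
Lrrc17, chr5:21575452-21575481, plus strand, 3′ UTR: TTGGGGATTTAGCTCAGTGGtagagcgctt
Bc1, chr7:144914474-144914503, plus strand, noncoding RNA: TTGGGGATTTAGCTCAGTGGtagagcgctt
Kif3a, chr11:53601870-53601899, plus strand, 3′ UTR: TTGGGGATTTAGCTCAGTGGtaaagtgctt
Ccdc36, chr9:108403684-108403713, minus strand, 3′ UTR: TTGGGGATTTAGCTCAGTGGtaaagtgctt
Counted from the first base shown, Kif3a and Ccdc36 both carried the differences G23A and C26T from Lrrc17, and Bc1 carried none.

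Lrrc17 spanned nearly the whole range of expression within this 1 sample. It had no UMI in 21 of the kept cells, lay under 100 CPM in 43, between 100 and 1000 CPM in 77, between 1000 and 10000 CPM in 54, and at 10000 CPM or more in 42. The lowest, median and highest values were 6633, 13060 and 34808 CPM in the high cells and 0, 28 and 143.7 CPM in the low cells. The thresholds stood at 6572 and 151.6 CPM. The nearest cells on either side were at 6633 and 6551 CPM for the upper and at 143.7 and 154.2 CPM for the lower threshold, so neither fell in a gap. Over all UMIs of a class, Lrrc17 made 15510 CPM in the high, 2469 in the upper-middle, 344 in the lower-middle and 46.2 in the low cells. In the high class only Rn45s had more UMIs, and in the low class Lrrc17 ranked 3066. The high cells held 26.6% of the kept cells' UMIs but 84.7% of their Lrrc17 UMIs.

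Cells at both ends were present without heating. Over the 51 unheated cells the lowest, median and highest Lrrc17 values were 0, 1187 and 13031 CPM, and 46 of 51 cells had at least 1 UMI. Of these cells, 5 lay over the upper and 10 at or under the lower threshold, which is 9.80% and 19.6%. At 37 °C and 5 h the 6 cells had a median of 1421 CPM, with 1 over the upper and 3 at or under the lower threshold. Among all heated cells at 5 h the median was 604 CPM, under that of the unheated cells, while the sum over all UMIs was 4852 CPM against 2291. At 10 h after heating 45 cells passed the same filter, and the 12 in their highest quartile ranged from 4812 to 22207 CPM against 0 to 115.4 CPM for the 12 in their lowest.

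**Figure D1:**
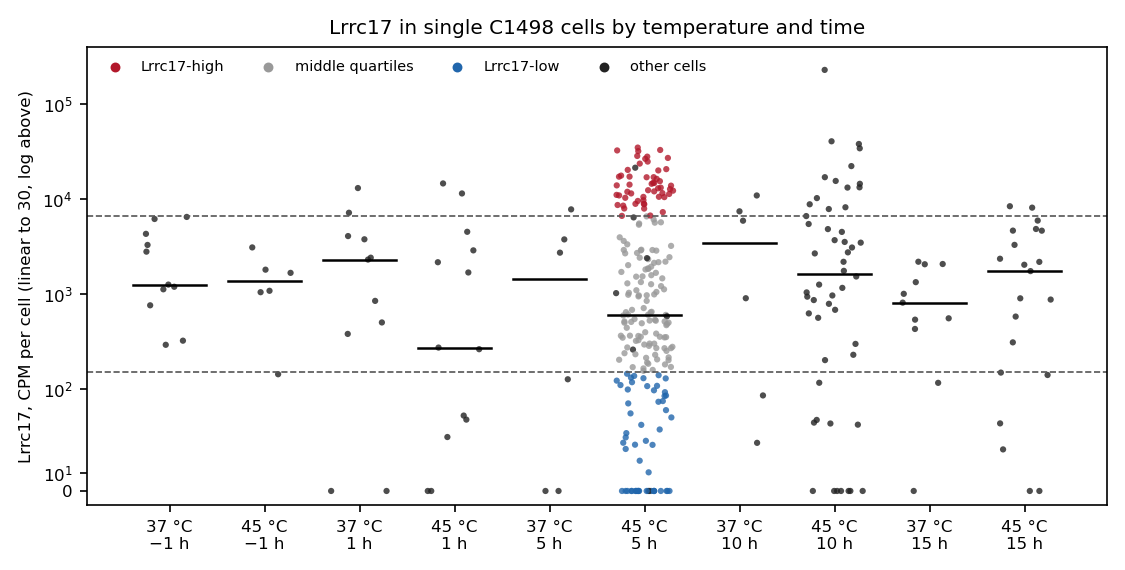
Lrrc17 in CPM (y axis, linear to 30 and logarithmic above) in each of the 360 cells, by temperature and time of picking; bars are group medians and dashed lines the thresholds of 6572 and 151.6 CPM. Heated cells at 5 h fill the range from 0 to 34808 CPM, and single unheated cells lie beyond both lines.

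Of all measured genes, Bc1 differed most in the upward direction. Its lowest, median and highest values were 0, 25.4 and 188.8 CPM in the high cells and 0, 0 and 32.7 CPM in the low cells. It had a UMI in 37 of 54 high cells (68.5%), 10 of 54 upper-middle, 4 of 54 lower-middle and 2 of 54 low cells (3.70%). Summed over the class it made 35.3 CPM against 0.803 CPM, a log2 ratio of 4.98 (3.24 to 11.10) that rests on 63.3 against 1.25 UMIs. The 2 middle classes, which share no cell with the outer ones, stood at 6.94 and 1.54 CPM. At 10 h the high quartile had 3 Bc1 UMIs, in 2 cells, and the low quartile none, too few for a ratio. Over the 4 classes of 54 cells Spearman's rho of Bc1 with Lrrc17 was 0.57, whereas the others of 8898 genes with a UMI in at least 20 cells lay between -0.26 and 0.26. Within a class, where Lrrc17 varies less, rho was 0.38 in the high, 0.20 in the upper-middle, 0.12 in the lower-middle and 0.29 in the low cells. Outside these cells rho was 0.40 over the 51 unheated cells, of which 6 had Bc1. It was 0.33 over all 52 cells at 10 h after heating, taken without the filter on cells. Of these 3 had Bc1, among them cell 7, which did not pass the filter. The points in these correlations share 1 table and differ in depth, and rho of Bc1 with a cell's total UMIs was 0.18.

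Bc1 UMIs were few beside those of Lrrc17 in every class. There were 0.228 Bc1 UMIs (0.174 to 0.290) for each 100 Lrrc17 UMIs in the high, 0.281 (0.141 to 0.479) in the upper-middle and 0.447 (0.0432 to 1.30) in the lower-middle cells. The low cells gave 1.74, with an interval from 0.0347 to 7.99. Unheated cells had 0.152 (0.0642 to 0.330). The estimates were higher in the classes with less Lrrc17 and the intervals overlapped, but the lower-middle and low cells rest on 2.5 and 1.25 Bc1 UMIs, too few to tell whether the ratio was constant.

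The deposited values show molecules divided between the 2 genes. Values that are not whole arise in this table, and Bc1 was not whole in 33 of the 53 cells that had it. In 26 of these 33 cells Lrrc17 was not whole either, and in all 26 the 2 values added up to a whole number within 0.02. In cell 4, for example, Bc1 was 1.33 and Lrrc17 284.67 UMIs, which sum to 286. For comparison, Bc1 and Kif3a were both not whole in 13 cells and added up to a whole number in 3. The level of Bc1 is therefore not a measure independent of Lrrc17, and whether the Bc1 UMIs came from Bc1 RNA or from the shared stretch of Lrrc17 was not tested. Of the Lrrc17 UMIs in the kept cells, 0.0805% lay beyond whole numbers. This remainder is always less than a whole UMI in a cell, so it does not show how many Lrrc17 molecules were divided.

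**Figure D2:**
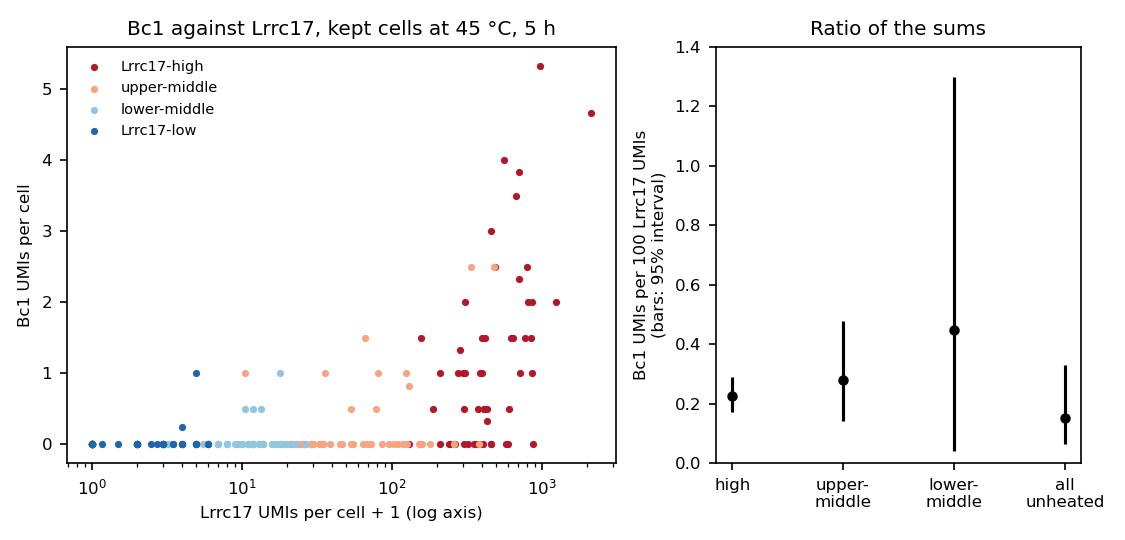
Left, Bc1 UMIs against Lrrc17 UMIs plus 1 (logarithmic axis) in the kept cells, coloured by Lrrc17 class; right, Bc1 UMIs per 100 Lrrc17 UMIs summed over each set of cells with the 95% counting interval (low cells, with 1.25 Bc1 UMIs, not drawn). Cells with over 2 Bc1 UMIs are upper-middle or high cells, and the intervals of the ratio overlap.

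Kif3a and Ccdc36 carry the 20-base run too, and their levels were high in a few cells of either class. Kif3a reached 4065 CPM in 1 high and 4119 CPM in 1 low cell, against medians of 23.7 and 34.97 CPM, and Ccdc36 reached 4185 and 4119 CPM against medians of 0. Summed CPM was 336 against 463 for Kif3a and 326 against 447 for Ccdc36, log2 ratios of -0.46 for both, which moved to -0.88 and -0.91 without high cell 110 and to -0.10 and -0.07 without low cell 40. Their rho with Lrrc17 was -0.07 and 0.04. They went with each other instead, with a rho of 0.68, and both were not whole in the same 94 cells. Timm22, a subunit of a mitochondrial inner membrane translocase that also holds the run, was not whole in 72 of these, and there the 3 values added up to a whole number in 61. The other holders of the run that the table lists were at or under 14.5 CPM in both classes or, for Cnot3, Kif15, Sltm and Timm22, between 66.2 and 188.1 CPM with log2 ratios from -0.31 to 0.44. Among the low ones Pex13 had 26 against 11 UMIs (1.00, -0.03 to 2.20) and a rho of 0.15 with Lrrc17. Tatdn1 had 14 against 8 UMIs (0.57), Dennd4a 16 against 14 (-0.02) and a predicted gene 0.33 against 0.

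Apart from Bc1 the 2 classes were alike in most genes. Measured genes were those with 50 UMIs or more over both classes and 20 CPM or more in either, and ratios were taken of summed CPM after adding 0.5 UMI to each sum. Of 5582 measured genes other than Lrrc17, 94.2% lay within 1.5-fold, 3.17% were at least 1.5-fold higher and 2.65% at least 1.5-fold lower in the high class. At 2-fold the counts were 28 (0.502%) and 20 (0.358%). Among the 2442 genes with at least 200 UMIs, where counting error is smaller, 13 (0.532%) were at least 1.5-fold higher and 12 (0.491%) lower. Mir1949, the gene with the largest difference downward and singled out after its value was seen, had 2 against 55 UMIs (log2 ratio -4.68), but -0.76 without low cell 40. The next lowest, also picked after their values were seen, did not lean on 1 cell. Snora33 had 4.5 against 46 UMIs (-3.42) and stayed at -3.105 or lower without any 1 cell. Snora75 had 8 against 42 UMIs (-2.53) and stayed at -2.22 or lower. Each had a UMI in only 24.1% of the low cells. In the upper-middle over the lower-middle cells their log2 ratios were -2.995 and -1.61.

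**Figure D3:**
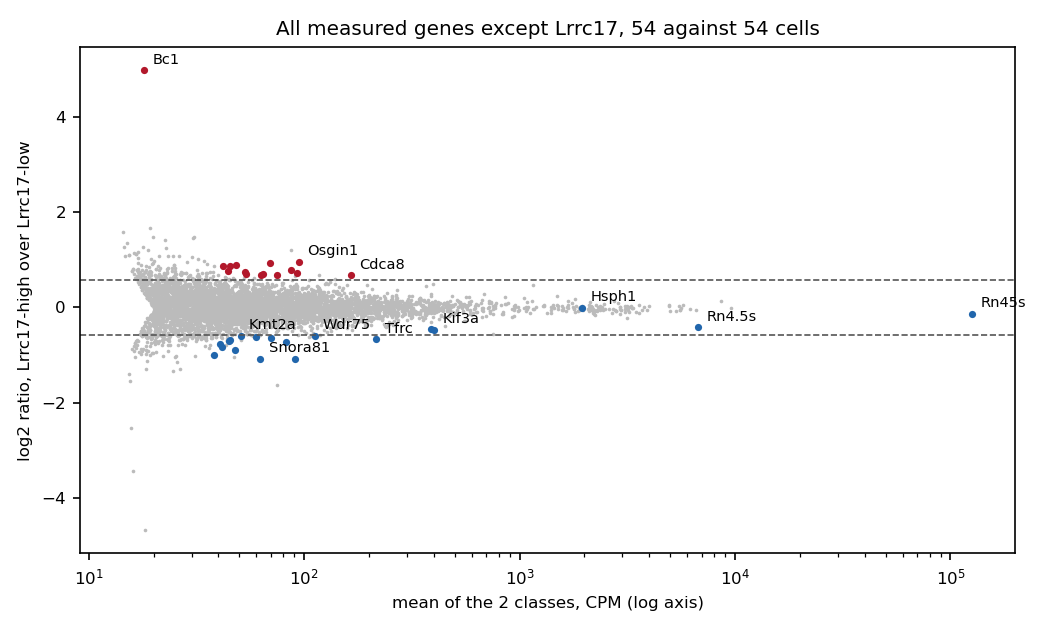
Log2 ratio of Lrrc17-high over Lrrc17-low cells (y axis) against mean CPM of both classes (logarithmic x axis) for the 5582 measured genes; dashed lines mark 1.5-fold, and coloured points are named genes above (red) or below 0 (blue). Bc1 at 4.98 stands alone above, and genes of higher CPM lie close to 0.

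The middle classes served as a second, separate contrast of more against less Lrrc17, 2469 against 344 CPM. There 2.22% of 5666 measured genes were at least 1.5-fold higher and 290 (5.12%) lower. Of the genes higher in the high class and measured in the middle cells, 55 (40.4%) lay above 0 there, against 42.96% of all genes measured in both. Of these genes 7 were past 1.5-fold upward (5.15%, against 1.66% of all genes) and 20 downward (14.7%, against 4.10%). Of the lower genes measured in the middle cells, 63 (53.8%) lay below 0, against 57.04% of all genes, and 7 were past 1.5-fold downward (5.98%, against 4.10%) and 9 upward (7.69%, against 1.66%). Calls in the opposite direction were thus at least as frequent as those in the same one. At 10 h only 5 of the higher and 10 of the lower genes were measured, in a contrast where 80 of 1719 genes (4.65%) were higher and 7.74% lower.

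Of the 14 genes named on the higher side, 4 were on the list of G2 and M phase genes. That list held 35 of all 5582 measured genes. Named were those of at least 50 CPM, seen in at least 50% of the higher class's cells, that kept their direction without any 1 cell. Tacc3, which stabilises spindle microtubules, had lowest, median and highest values of 0, 75.3 and 263 CPM in the high and 0, 26.6 and 251 CPM in the low cells. The ranges overlap almost fully, and the difference lies in the medians. Its log2 ratio was 0.93 (0.53 to 1.35). Kif23, the motor of the central spindle, stood at 63 against 33.7 CPM (0.89). Hmmr, a spindle assembly factor, had 115.4 against 70.05 CPM (0.72). Cdca8, a subunit of the chromosomal passenger complex, had 203.2 against 126.6 CPM (0.68). Prc1, which bundles microtubules at the midzone and was not on the list, had 78.1 against 48.2 CPM (0.69). In the middle cells these 5 genes had log2 ratios of -0.12, -0.72, -0.08, 0.02 and 0.09, so none was at least 1.5-fold higher there and Kif23 was lower.

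Of the 36 genes listed for G2 and M phase, 35 were measured. Of these 7 were at least 1.5-fold higher (3.17% of all measured genes were) and none was lower (2.65% of all were). The median log2 ratio was 0.23 against 0.01 for all measured genes, and 31 lay above 0, against 2906 of all 5582. Besides Tacc3, Kif23, Hmmr and Cdca8 the 7 included Bub3, Aurka and Ckap2l, which fell outside the naming rule (0.59, 0.60 and 0.73). Top2a, the topoisomerase that untangles chromosomes, had 0.46 and Hmgb2 0.00, and the lowest was Kif2c with -0.26. The summed CPM of the list ran from 1131 to 8590 with a median of 4656 in the high and from 645 to 8686 with a median of 3263 in the low cells. It lay over the median of the kept cells in 35 of 54 high (64.8%), 25 of 54 upper-middle, 29 of 54 lower-middle and 19 of 54 low cells (35.2%), so the middle classes did not fall in order. In the middle cells 8 of 35 lay above 0, against 2418 of all 5666 genes measured there, and the median was -0.13 against -0.05 for all. At 10 h the median over 19 measured genes was -0.02.

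Sequencing depth moved with this group of genes. The high cells had a median of 32476 UMIs and the low cells 28226, and Cdca8, Prc1 and Hmmr had a rho of 0.34, 0.35 and 0.39 with a cell's total UMIs, larger than their 0.20, 0.16 and 0.19 with Lrrc17. When quartiles of Lrrc17 were taken separately among cells over and under the median depth, the classes had medians of 29568 and 29972 UMIs. The list's median became -0.03, with 16 of 35 above 0 and 1 at least 1.5-fold higher (3.02% of all measured genes were). Other settings for depth left the list's median above 0. With classes drawn from Lrrc17 after thinning, 25 of 35 lay above 0, 3 were at least 1.5-fold higher (3.06% of all were) and the median was 0.17. With every cell thinned to 5000 UMIs 18 were measured, 11 lay above 0, 4 were higher (4.26% of all were) and the median was 0.10. The list's difference therefore varied with how depth was treated. S phase genes leaned the other way, with 21 of 29 below 0 (2676 of 5582 for all measured genes) and none past 1.5-fold. Their median of -0.16 also moved to -0.03 at like depth.

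The other genes named on the higher side had various roles. Osgin1, an oxidative stress response gene, was at 0, 34.1 and 1466 CPM in the high and 0, 0 and 1154 CPM in the low cells, and at 125.2 against 63.9 CPM summed (0.96). It leaned on single cells of both classes, since leaving out 1 cell at a time gave ratios from 0.44, which is under 1.5-fold, to 1.53. H2afx, the histone variant phosphorylated at DNA breaks, stood at 110 against 63.8 CPM (0.78), and Ptpn1, a tyrosine phosphatase, at 58.5 against 31.8 CPM (0.87). Ttll12, Hpcal1, Cdc27, Kri1, Dbf4 and Sept6 completed the 14, with log2 ratios from 0.68 to 0.88. Cdc27 is a subunit of the anaphase-promoting complex and Dbf4 the activator of the replication kinase Cdc7. Of the 14, 7 lay above 0 in the middle cells, and none passed 1.5-fold upward.

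On the lower side 14 genes were named. Tfrc, the transferrin receptor, had lowest, median and highest values of 0, 133.6 and 545 CPM in the high and 0, 176.9 and 1188 CPM in the low cells, and a log2 ratio of -0.67 (-0.89 to -0.45). Wdr75, a factor of ribosome biogenesis, had 0, 75.1 and 268 against 0, 129.5 and 416 CPM (-0.59, -0.90 to -0.29), and the lowest rho with Lrrc17 of 4568 genes seen in at least 50% of the cells, -0.23. Srsf5, a splicing factor, stood at 61.9 against 102.5 CPM (-0.73), Kmt2a, a histone methyltransferase, at 40.4 against 61.05 CPM (-0.59), and Rgs2, an inhibitor of G protein signalling, at 30.1 against 51.1 CPM (-0.76), while in the middle cells Rgs2 was higher (0.93). Snora81, Dancr, Mcoln2, Nt5c3, Trim33, Pspc1 and Adi1 ranged from -1.07 to -0.62. The remaining pair, Snhg4 and Gon7, had -1.09 and -0.89 but -0.22 and -0.38 without low cell 40. That cell was the deepest of the low class, with 71518 UMIs, and the 1 on which 18 of the lower genes leaned most. Leaving out some 1 cell took 7 of the 14 under 1.5-fold, among them Tfrc (-0.55), Wdr75 (-0.54) and Kmt2a (-0.51). Of the 14, 8 lay below 0 in the middle cells and none passed 1.5-fold downward.

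**Figure D4:**
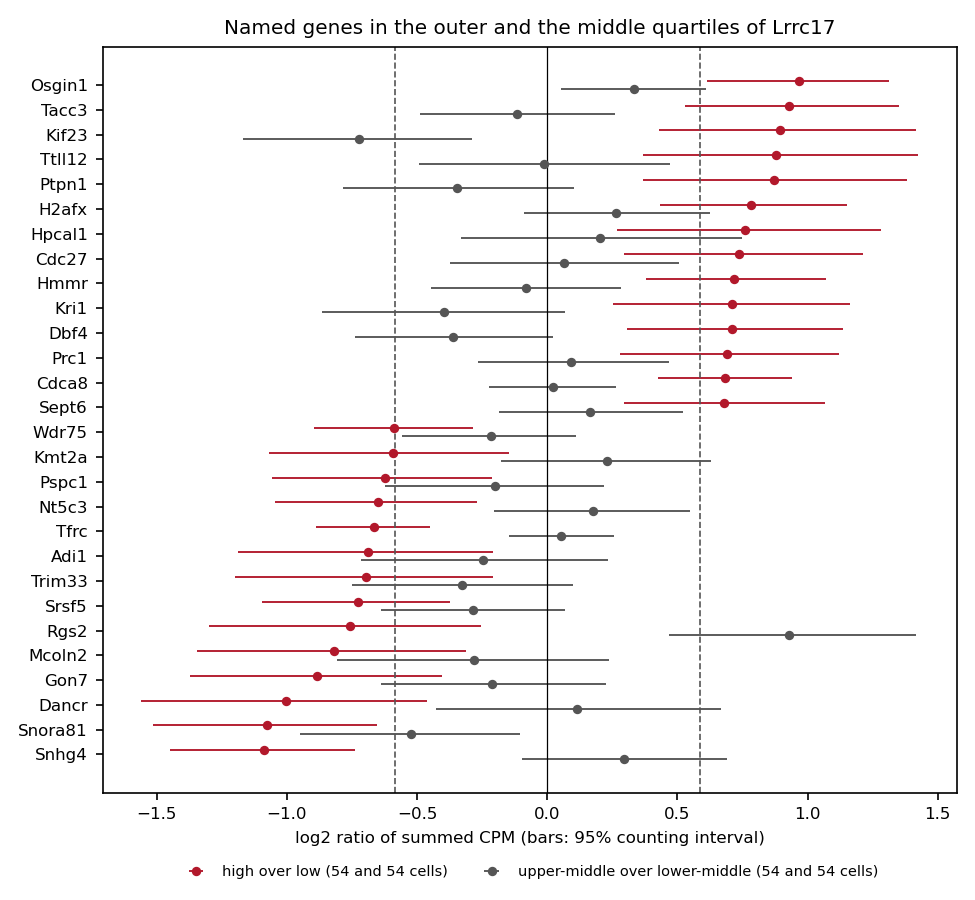
Log2 ratio (x axis) of the 28 named genes in the high over the low cells (red) and in the upper-middle over the lower-middle cells (grey), with 95% counting intervals; dashed lines mark 1.5-fold. Red points lie outside the dashed lines by the naming rule, and the grey points scatter around 0, with 7 of 14 above 0 among the higher and 8 of 14 below 0 among the lower genes.

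By rank correlation over all kept cells, no gene seen in at least 50% of cells had a rho with Lrrc17 beyond 0.3 in either direction. The highest were Ttll12 (0.25), Cct8 of the cytosolic chaperonin (0.24), Tacc3 (0.24), H2afx (0.23) and the COPII coat subunit Sec23a (0.23). Among the lowest were Wdr75 (-0.23), Plekhg2 (-0.21), Tmem14c (-0.20) and Pnp (-0.20). Correlations this weak in sparse counts are given as values only. Lrrc17 had a rho of 0.16 with total UMIs and -0.17 with the share of Rn45s.

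Most listed genes of the pathway that Lrrc17 is known for were too low to be measured. Of 42 genes listed for RANK and NFATc1 signalling, 12 were measured. Of these 1 was at least 1.5-fold higher (3.17% of all measured genes were), none was lower (2.65% of all were) and 9 lay above 0. The median log2 ratio was 0.15, against 0.01 for all measured genes. The 1 was Map3k7, the kinase TAK1, at 40.1 against 24.4 CPM (0.71), with -0.30 in the middle cells. Nfatc1 stood at 18.4 against 20.6 CPM, the adaptor Traf6 at 42.9 against 36.6 CPM, and the calcineurin subunits Ppp3ca, Ppp3cb and Ppp3r1 had ratios of 0.19, 0.23 and 0.22. Markers of osteoblasts and stroma, in which Lrrc17 is otherwise known, were near 0 in both classes: 1 of 10 had any UMI in the high and 3 of 10 in the low cells, and Col1a1, Col3a1, Sp7, Alpl, Dcn, Pdgfra and Pdgfrb were at 0 in both.

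None of the measured genes beside Lrrc17 on chromosome 5 was 1.5-fold apart. Of 10 neighbours 4 were measured, and Armc10, Pmpcb, Dnajc2 and Psmc2 had log2 ratios of 0.21, -0.15, 0.03 and 0.21. Fbxl13 (chr5:21483847-21645698), whose span includes that of Lrrc17, had 0 UMIs in both classes, which allows up to 1.67 CPM in the high and 1.93 CPM in the low cells.

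Heat shock genes stood at like levels in both classes. Hsph1, a chaperone of the Hsp110 family, had lowest, median and highest values of 303, 1690 and 4689 CPM in the high and 124.4, 1626 and 10510 CPM in the low cells. Summed, it stood at 1946 and 1950 CPM, against 241 CPM over the unheated cells. None of 29 measured heat shock chaperones was at least 1.5-fold apart (median 0.05), with Dnajb1 at 0.29 and Hspa9, which leaned on low cell 40 (-0.10 without it), at -0.55. The same held for the measured genes listed for chaperonin and prefoldin (14), the ER unfolded protein response (19) and the proteasome (31). It also held for the lists of the respiratory chain (40), ribosome biogenesis (30) and ribosomal proteins (81). In each list no gene was past 1.5-fold and the median lay between -0.07 and 0.03. Wdr75 (-0.59), the factor of ribosome biogenesis named above, was not on these lists.

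Of the remaining lists, cholesterol synthesis had 3 of 16 measured genes at least 1.5-fold lower in the high class (2.65% of all genes were), none higher, 12 below 0 and a median of -0.28, whose interval from -0.50 to 0.02 includes 0. Sqle, the squalene epoxidase, had 20.6 against 41.8 CPM (-1.01), but -0.15 in the middle cells. Hmgcs1, an earlier enzyme of the pathway, had 0.51 in the other direction. Over the list the middle cells had the same direction, with 2 of 16 above 0 and 5 at least 1.5-fold lower (5.12% of all genes were). The list's median was -0.40 there, and -0.41 in high over low cells at like depth. Splicing kinases and SR proteins had 2 of 24 lower (2.65% of all genes were), none higher and 18 below 0 (2676 of all 5582 were). Their median was -0.08. In the middle cells 15 of 25 lay above 0 (2418 of all 5666 did), none was past 1.5-fold and the median was 0.04. Of 20 interferon response genes only 3 were measured, and 2 of these were at least 1.5-fold higher (3.17% of all genes were). The transcription factor Irf1 stood at 32.3 against 13.5 CPM (1.24), with 0.25 in the middle cells. Psmb9, an immunoproteasome subunit, had 40 against 21 UMIs (0.71), but 0.45 without 1 high cell and -0.98 in the middle cells. Of the other RNA polymerase III transcripts, Rn4.5s stood at 5806 against 7688 CPM (-0.41, but -0.10 without low cell 40), Rpph1 had -0.13, Rmrp 0.28 and Vaultrc5 -0.52, none of them 1.5-fold apart. Rn45s was at 120806 against 132070 CPM.

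**Figure D5:**
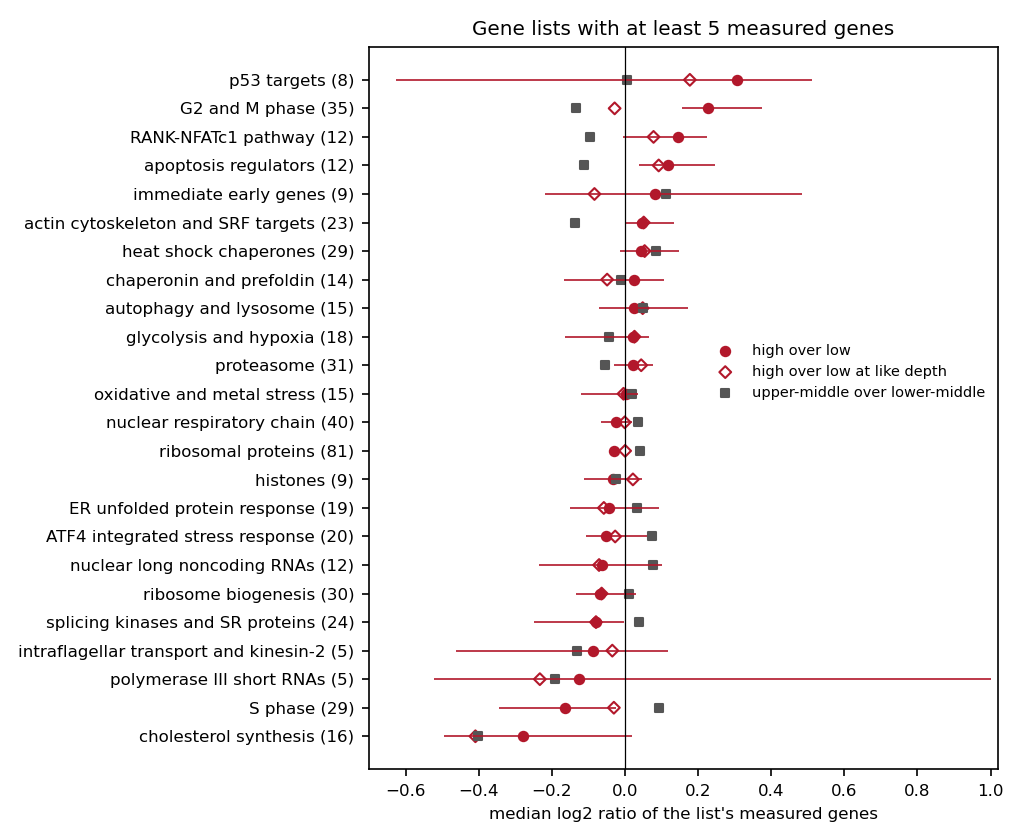
Median log2 ratio (x axis) of each list's measured genes, numbers in brackets, in high over low cells (filled red, with the interval of the median from order statistics, drawn up to 1), in high over low cells of like depth (open red) and in upper-middle over lower-middle cells (grey). G2 and M phase goes from 0.23 to -0.03 at like depth, and cholesterol synthesis lies below 0 in all 3.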

How the data were processed

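The deposited table holds estimated counts of UMIs per gene and cell, made by the authors and not scaled to any total. Of the deposited values above 0, 5.30% are not whole. RNA was reverse transcribed from a primer with a stretch of T and a molecular barcode, per the labels' protocols, so values lean to the end that carries the poly(A) tail. STAR and mm10 appear in the list of tools and builds per the submitters' processing notes. The UMI counter was not given in the sources used here, nor was its annotation. Coordinates and sequences come from GENCODE M21 and RefSeq's GRCm38.p6 tables, which share that build.

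The cells, the gene lists and the naming rule were chosen with earlier results of these data known. UMIs of a class were summed per gene, divided by the class total and scaled to 1e6. Sums were rounded for the exact conditional binomial (Clopper-Pearson) 95% interval. A gene at 0 was given an upper limit of 3 counts over the class. Intervals of list medians are order statistics of the members. Genes were named by the smaller of the ratios from summed CPM and from the mean of the cells' own CPM, up to 15 per direction, and predicted genes, 1 in each direction, were not named. A gene among those with the lowest rank correlations is not reported here. The highest and lowest ratio and the 2 genes with the most UMIs could be named from each list. The median depth per cell was 32476 UMIs in the high and 28226 in the low class. Because each group is 1 sample, no test was made; leaving out each cell and 12 other settings were tried. The computation was tested on simulated data. Python 3.11.15, numpy 2.4.6, pandas 2.3.3 and scipy 1.17.1 were used.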

Additional observations from a re-analysis of the deposited data

How the results depend on the processing

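The main shares were 3.17% of 5582 genes at least 1.5-fold higher and 2.65% lower. Shares of the measured genes stand here in place of plain counts, a form chosen after the values were seen, and a change of over 1.5 times in either the share or the count was taken as a move. They became 4.26% and 3.84% of 1668 genes (71 and 64) with every cell thinned to 5000 UMIs, 5.73% and 8.12% of 1502 genes with Rn45s at most 10% of UMIs, where 33 cells and classes of 9 remained, 1.98% and 1.65% with classes of 72 cells, 15.9% and 16.1% (1971 and 1991 genes) with no filter on low genes, and 0.532% and 0.491% (13 and 12 genes) with at least 200 UMIs per gene. With 5 UMIs added 2.10% were higher. In the other settings both shares and both counts stayed within 1.5 times. Quartiles at like depth gave 3.02% and 2.86%, and shared with the main calls 62.1% of the main and 65.1% of their own higher genes, and 60.8% and 56.3% of the lower ones. With thinning 3 of 71 higher and 2 of 64 lower genes were main calls, and with Rn45s at most 10% 1.16% and 3.28% were, each out of fewer measured genes. Leaving out some 1 cell took 42.9% of the higher and 56.1% of the lower genes under 1.5-fold. Of Bc1 and the 28 named genes, 17 stayed at least 1.5-fold apart at like depth, 16 with thinning, 19 with classes from thinned Lrrc17, 15 with classes of 72 cells and 14 with Rn45s at most 10%. In that last setting the G2 and M phase median was -0.50 over 14 measured genes, with 2 above 0. Ratios changed sign with Rn45s at most 10% for Prc1 (-0.38), Sept6 (-0.40), Map3k7 (-0.38), Bub3 (-0.082), Aurka (-0.48) and Atf5 (0.85), and with thinning for Rgs2 (0.11), Adi1 (0.12) and Aurka (-0.82); the cause was not tested. Bc1 ranged from 3.25 to 6.77 over all settings. Leaving out low cell 40, a setting chosen after seeing the data, gave 2.85% and 3.16%. No paired analysis was possible because the numbers in the labels only count cells and no result comes from a test. All classes come from 1 sample, so the spread between cultures is unknown, and thinned cells left 1668 measured genes.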

Other observations

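In the smaller groups Bc1 and Lrrc17 also occurred in a low ratio. For each 100 Lrrc17 UMIs there were 0.253 Bc1 UMIs in the 11 cells at 37 °C and -1 h, 0.136 at 37 °C and 1 h, 0.150 at 45 °C and 1 h, 0.415 at 37 °C and 5 h, 0.126 at 45 °C and 10 h and 0.331 at 45 °C and 15 h. No Bc1 UMI was found beside 321.5 Lrrc17 UMIs at 45 °C and -1 h, 726.5 at 37 °C and 10 h and 503 at 37 °C and 15 h, where the upper limits were 1.15, 0.509 and 0.736. The 95% counting intervals of all 9 groups included the 0.242 of the kept heated cells at 5 h. The 1 cell with the highest Lrrc17 value of the series, 229437 CPM at 45 °C and 10 h, did not pass the filter on cells.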
